A study of Rattus norvegicus with 34 samples.

Results

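The comparison covered 8 rat tissues on TaqMan card B, with kidney, prostate, lung, and small intestine (the epithelial organs) set against liver, heart, skeletal muscle, and spleen (the other organs). These were 8 of the 34 libraries of the series and 8 of its 17 libraries on card B. They were chosen because their positions on card B ran in the same order, which is a choice made on measured values, and the division into organs was made with earlier results of these data known. All 8 tissues came from Sprague-Dawley rats aged 4 weeks, male and female according to the methods, and none is labelled as treated. Total RNA was isolated with TRIzol and was not preamplified, each tissue was measured once, and the sources do not give how many animals stand behind a library. The p-values below therefore set organs against organs and not animals against animals.

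MicroRNAs (miRNAs) are short noncoding RNAs that bind messenger RNAs and lower their translation and stability, and many are made mainly in 1 kind of cell. Epithelium lines the tubules of the kidney, the glands of the prostate, the airways and alveoli of the lung, and the mucosa of the small intestine, whereas heart and skeletal muscle are built of muscle fibers and the spleen of blood and lymphoid cells. Hepatocytes are epithelial cells too, so the label of the second group is loose for liver. In whole organs, fewer cells of a type and less RNA per cell cannot be told apart.

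Each well of the card holds an assay for a single miRNA or control RNA, and C_P is the PCR cycle at which its fluorescence crosses the threshold, so that a lower C_P means more template. A well counted as detected at a C_P of at most 35, and later or absent signals were set to 35. Wells without amplification are listed at 50. The value called scaled C_P is the C_P minus the median of that tissue over the 73 positions detected in all 8 tissues. Positions are given by their number on the card because the tables of values do not pair the numbers with miRNAs. The array definition that the study says it submitted was not used here, so neither names nor sequences are given. The 8 positions 9 to 12 and 33 to 36 were left out as repeated assays, which left 376 of 384.

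The number of detected positions overlapped between the groups. It was 191 in kidney, 114 in prostate, 218 in lung, and 195 in small intestine. Among the other organs it was 144 in liver, 184 in heart, 125 in skeletal muscle, and 201 in spleen. Lung and spleen were the highest of their groups, and prostate was the lowest of all 8. The means were 179.5 ± 45.3 (SD, n = 4) and 163.5 ± 35.1 (SD, n = 4), and the difference of 16 positions was within the spread between organs (two-sided exact permutation test, p = 0.657). The medians used for scaling ran from a C_P of 27.2 in lung to 30.7 in skeletal muscle. Prostate had the latest C_P of the 8 libraries, at 44.6 against 37.3 to 41.8 in the others, and the part of this difference in the prostate values was not tested.

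In these 8 libraries much of card B consisted of repeated wells. From position 97 on, each well p up to 240 and the well p + 144 gave like values, and the Spearman correlation of C_P over the 144 pairs was 0.796 to 0.951 in the 8 libraries. At other distances, from 124 to 143 positions, the highest correlation in these libraries was 0.222. Wells 144 positions apart had correlations of -0.00785 to 0.200 in the remaining 9 libraries on card B, and of 0.0482 to 0.169 on card A of the same 8 tissues. The repeat thus belonged to these 8 libraries on card B. It was found from the values, and the labels and methods do not mention it.

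The repeated wells give the error of a single well. Both wells were detected in 447 of the 1152 combinations of pair and tissue, and the SD of a well was 0.501 cycles. It was 0.171 cycles for pairs with a mean C_P up to 25 (36 pairs), 0.259 between 25 and 30 (103 pairs), and 0.582 between 30 and 35 (308 pairs). The error thus grew toward the detection limit, where it is if anything understated, since pairs with a well beyond the limit are not part of it. By tissue it ran from 0.348 cycles in heart to 0.739 in prostate. Sets of 4 repeated wells elsewhere on the card gave no single order. Heart had the highest SD within a tissue for wells 13, 14, 37, and 38 (1.45 cycles) and for the left-out wells 11, 12, 35, and 36 (0.793 cycles). Prostate had the highest for wells 55, 56, 79, and 80 (0.504 cycles) and for the left-out wells 9, 10, 33, and 34 (0.520 cycles). No order of the tissues by well error is therefore drawn. In another 110 combinations only 1 of the wells passed the limit, which was 19.7% of those with any detection, and the passing well then had a median C_P of 33.97. A single well near the limit was accordingly a weak sign of presence.

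**Figure D1:**
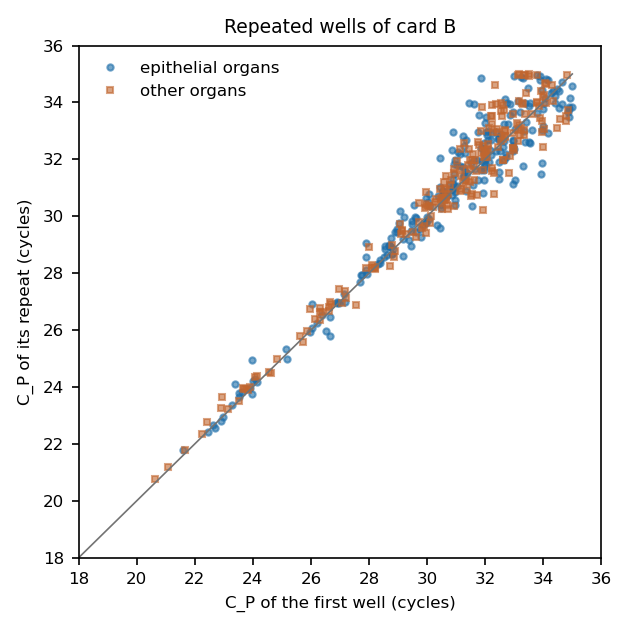
The repeated wells of card B in the 8 tissues. Each point is 1 of the 447 combinations of pair and tissue with both wells detected, with the C_P (cycles) of the first well on the x axis, that of its repeat 144 positions later on the y axis, and a line of equal values. The points widen around the line toward a C_P of 35, where the SD of a well was 0.582 cycles.

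Detection was broad for many positions and rarely divided by group. Of the 376 positions, 255 were detected in at least 1 tissue and 73 in all 8. With repeated wells averaged, and an assay taken as detected in a tissue only where all its wells were, the 376 positions became 226 distinct assays, of which 148 were detected in at least 1 tissue and 43 in all 8. Only 3 positions, 135, 136, and 279, were detected in all 4 epithelial organs and in no other organ. Position 280, the repeat of 136, was also detected in liver. The reverse was found for 0 positions.

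A position was then counted for a group when it was detected in all 4 of its organs at a lower scaled C_P than in each organ of the opposite group. There were 6 such positions for the epithelial organs, which is 1.6% of the 376, and 0 for the other organs (0%). The 6 positions were 127, 135, 136, 271, 279, and 280, and they form 3 pairs of repeated wells, 127 with 271, 135 with 279, and 136 with 280. Averaged wells accordingly gave 3 of 226 distinct assays (1.33%) and 0 in the reverse direction. A count of 6 or more was reached by 7 of the 70 ways to assign 4 of the 8 tissues to a group (one-sided exact permutation test, p = 0.1), and a count of 3 or more distinct assays by 11 of 70 (one-sided exact permutation test, p = 0.157). The number of positions therefore did not set this grouping apart from other groupings of the same tissues, and kidney, small intestine, liver, and heart against the rest gave as many as 10. The gaps were wide, since between the nearest organs all 6 positions lay over 1 cycle apart. With that gap required, the count of 6 was reached by no other of the 70 assignments, nor was the count of 3 distinct assays. This is a description and gives no usable p, since the grouping was chosen with earlier results known. The gaps of 127, 135, 136, and 279 also ran to skeletal muscle, which was undetected there and set to the limit.

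The assay in wells 135 and 279 divided the organs most widely. In the epithelial organs the C_P of position 135 was 30.9 in kidney, 29.2 in prostate, 28.8 in lung, and 29.4 in small intestine. Among the other organs it was 35.95 in liver, beyond the limit, and 50 in heart, skeletal muscle, and spleen. Its repeat, position 279, gave 30.9 in kidney, 28.6 in prostate, 28.7 in lung, and 29.5 in small intestine, and showed no amplification in the other 4. All 8 epithelial wells were thus detected and 0 of the 8 other wells were. The averaged scaled C_P was 0.145 ± 1.07 (SD, n = 4) in the epithelial organs. In the other organs it was the limit itself, which fell at 4.19 to 6.85 after scaling, so these organs have no measured spread and the fit gives no usable p for this assay. The difference of at least 5.21 cycles corresponds to at least 37.1-fold more template if product is copied fully in every cycle.

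The assay in wells 127 and 271 was absent from both muscles and late in liver and spleen. Position 127 had a C_P of 29.0 in kidney, 32.5 in prostate, 28.8 in lung, and 27.9 in small intestine. In the other organs it had 35.52 in liver, 33.96 in spleen, and no amplification in heart or skeletal muscle. Position 271 gave 29.8 in kidney, 31.3 in prostate, 28.9 in lung, and 28.1 in small intestine, against 34.02 in liver, 33.3 in spleen, and no amplification in heart or skeletal muscle. Of the 8 wells of the other organs, 3 were thus detected, all in liver or spleen. The averaged scaled C_P was 0.185 ± 1.41 (SD, n = 4) and 4.90 ± 1.01 (SD, n = 4). The difference was at least 4.72 cycles (SE 0.840, limma adjusted p = 0.0111) or at least 26.3-fold. Heart, skeletal muscle, and 1 well of liver entered this fit at the limit. The SD of the other organs is thus in part that of the scaling, and the p is a description. The call was lost without kidney (limma adjusted p = 0.0539) or without heart (limma adjusted p = 0.0584).

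The assay in wells 136 and 280 also divided the groups. Position 136 had a C_P of 31.98 in kidney, 29.8 in prostate, 29.99 in lung, and 30.7 in small intestine, against 36.4 in skeletal muscle and no amplification in liver, heart, and spleen. Position 280 gave 31.99 in kidney, 29.3 in prostate, 29.99 in lung, and 30.9 in small intestine, against 33.99 in liver and no amplification in heart, skeletal muscle, and spleen. The wells of liver disagreed, since 1 amplified within the limit and the other did not amplify. The averaged scaled C_P was 1.24 ± 1.31 (SD, n = 4) in the epithelial organs, and in the other organs it lay at the limit except for the 1 well of liver. The difference of at least 4.00 cycles corresponds to at least 16.0-fold, with no usable p for the same reason as for 135 and 279. The groups stayed apart with each of the 8 tissues left out, which follows from their separation in all 8 apart from small changes in scaling. The limma call of the averaged wells held in 1 of these 8 fits.

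**Figure D2:**
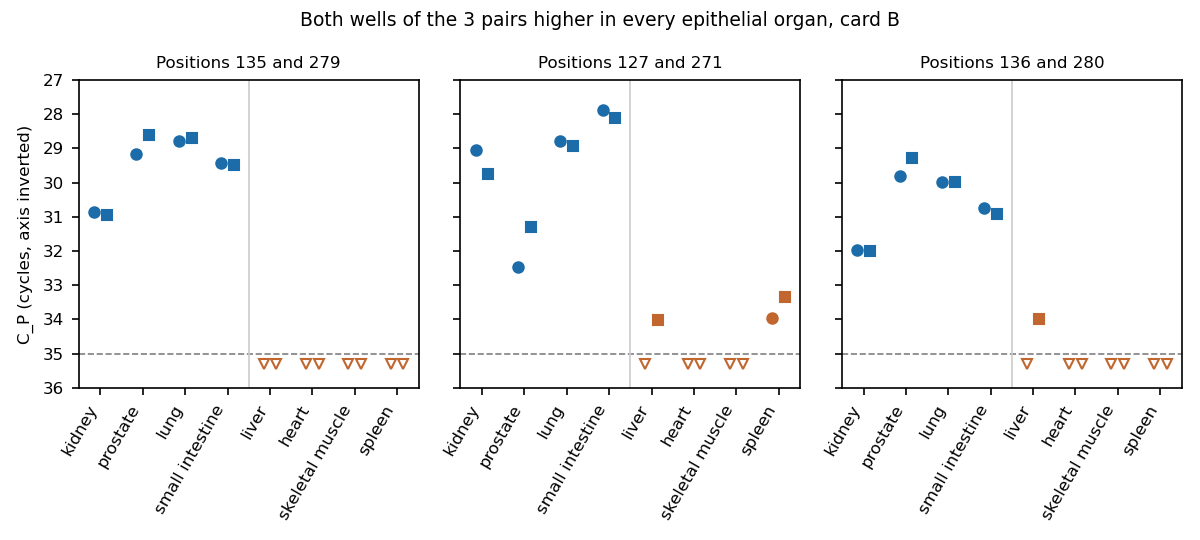
C_P (PCR cycles, with earlier signals higher) of the 3 pairs of repeated wells in each of the 8 tissues, with filled points for detected wells (circles for the first well, squares for its repeat) and open triangles for wells beyond the limit of 35. Every epithelial well lies earlier than every well of the other organs, and 4 of the 24 wells of the other organs were detected.

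The order of the epithelial organs differed among the 3 assays. Wells 135 and 279 had the earliest scaled C_P in prostate (-1.33) and the latest in kidney (0.959), a range of 2.29 cycles. Wells 136 and 280 were also earliest in prostate (-0.676), and latest in lung (2.15), a range of 2.82 cycles. Wells 127 and 271 ran the other way, with the earliest value in small intestine (-1.40) and the latest in prostate (1.68), a range of 3.08 cycles. Prostate was thus at opposite ends for these assays. The largest difference between the repeated wells of an assay in an epithelial organ was 0.566, 0.530, and 1.17 cycles, respectively, each in prostate.

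The assays of 135 and 136 kept a nearly fixed distance. In the 4 epithelial organs the averaged scaled C_P of 135 minus that of 136 was -1.37 to -0.655 cycles, with a mean of -1.09 ± 0.314 (SD, n = 4). The same difference of 127 minus 135 ran from -1.51 to 3.01 cycles and changed sign. These are levels of different assays, so the distance says nothing of which miRNA is more abundant.

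A fit across all positions called no position beyond these 6. Among the 189 positions detected in at least 4 of the 8 tissues, limma called 5 as higher in the epithelial organs at an adjusted p under 0.05, which is 2.65% of those tested, and 0 (0%) as higher in the other organs. The 5 were 127, 135, 136, 271, and 279. Positions 135, 136, and 279 were detected in 0 of the other organs, so they were tested only through the group in which they were high, and their calls set measured values against the limit. They are a description and not support for a difference. Positions 127 and 271, with 1 and 2 of the other organs detected, differed by 5.01 and 4.62 cycles, each with a limma adjusted p of 0.00685. The epithelial organs alone were enough for these positions to be tested as well. Heart and skeletal muscle were set to the limit at both, and liver at 127, so these calls too are a description. The averaged wells gave 3 calls of 106 tested (2.83%), with the same limits for 127, 135, and 136. All calls were lost with liver counted as an epithelial organ (smallest limma adjusted p = 0.241), with a detection limit of 32 (smallest limma adjusted p = 0.252), and for averaged wells without heart (smallest limma adjusted p = 0.0512). At an unadjusted limma p under 0.05 there were 7 positions, 6 higher in the epithelial and 1 higher in the other organs.

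The position higher in the other organs was 380, for which the epithelial organs lay 1.84 cycles later and the limma adjusted p was 0.992. Positions 144, 260, and 6 came next among the lowest p-values and also missed the threshold, with the same adjusted p. Just outside the count for the epithelial organs were positions 148, 41, and 102, with gaps between the nearest organs of -0.4003, -0.468, and -0.497 cycles, where a value below 0 is an overlap. Just outside the count for the other organs were positions 380, 236, and 23, with gaps of -0.293, -0.478, and -0.583 cycles. The least separated position inside the count for the epithelial organs was 280, with a gap of 1.20 cycles, and the widest gap was 2.88 cycles at 279.

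**Figure D3:**
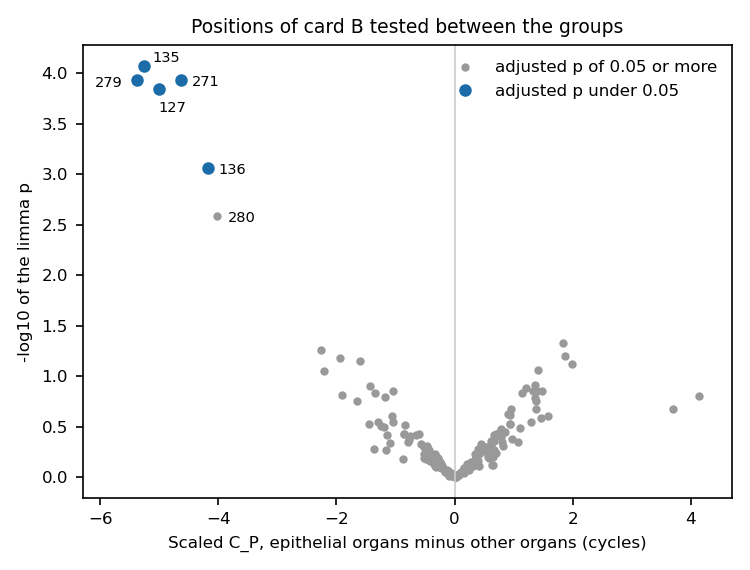
The limma difference between the groups (epithelial minus other organs, in cycles of scaled C_P) of the 189 tested positions against the p-value. The 6 labelled positions of the 3 repeated pairs lie at the left, from 4.01 to 5.38 cycles earlier in the epithelial organs with undetected wells at the limit, and the right side holds no position that passed the adjusted p of 0.05.

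The limit of 35 shaped what the count could find. Undetected wells of the other organs lay at a scaled C_P between 4.35 in skeletal muscle and 7.14 in spleen. Of the 96 positions detected in all 4 epithelial organs, 80 lay below 4.35 in each of them. Of the 91 positions detected in all 4 other organs, 78 lay below the corresponding value of the epithelial organs. The room for a position to be counted was thus of a like size in both directions.

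Profiles as a whole were not measurably more alike within the groups than between them. The Spearman correlation of C_P across positions was 0.629 to 0.846 within the epithelial organs, 0.616 to 0.822 within the other organs, and 0.581 to 0.848 between them. Its mean was 0.729 within and 0.721 between the groups, a difference of 0.00762 (one-sided exact permutation test, p = 0.286). Prostate and skeletal muscle, the tissues with the fewest detected positions, stood lowest with medians of 0.631 and 0.645 against the remaining 7 tissues, and the medians of the other 6 tissues were 0.760 to 0.826.

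**Figure D4:**
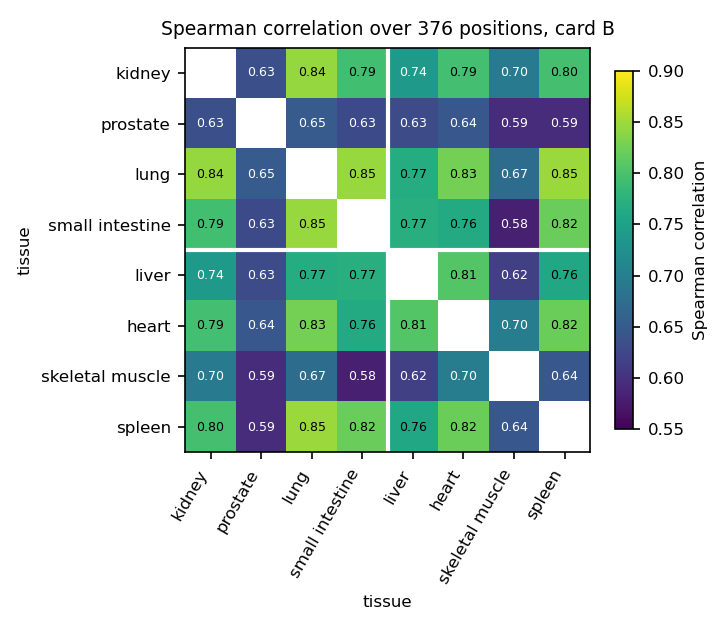
Spearman correlation of C_P across card B positions for each pair of the 8 tissues, ordered by group. The low rows of prostate and skeletal muscle cross both groups, and no block of high values follows the epithelial organs.

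Single organs also stood apart. A tissue led a position when its scaled C_P lay 3 or more cycles below that of every other tissue, which held for 13 of 376 positions (3.46%) and for 10 of 226 distinct assays (4.42%). The epithelial organs led 10 of these positions and 8 of the distinct assays, of which prostate, the library with the latest C_P, led 6 positions (50, 62, 68, 219, 280, and 363) and 4 distinct assays, and the other organs led 3 positions and 2 distinct assays. These leads are described without a test, since each tissue has 1 library, and a lead over an undetected tissue is a lower bound.

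Skeletal muscle led position 307 by 11.6 cycles and its repeat 163 by 11.2 cycles. The C_P of these wells was 21.8 and 21.7 in skeletal muscle, while heart, the next tissue, had 31.7 at position 307. The third position led by skeletal muscle was 53, by at least 4.05 cycles, and no repeat of it was found. Small intestine led position 209 by at least 9.34 cycles and its repeat 353 by at least 9.29 cycles, the distance to the limit. Both wells were detected in small intestine alone, at a C_P of 24.1 and 24.2. Prostate led position 363 by 7.55 cycles and its repeat 219 by 6.55 cycles. Lung led position 341 by 3.86 cycles and its repeat 197 by 2.80 cycles. Kidney led position 107 by at least 3.76 cycles, with skeletal muscle at the limit, while its lead at the repeat 251 was at least 2.14 cycles. In liver, heart, and spleen the largest lead stayed under 3 cycles, with 2.46 at position 131, 2.59 at position 217, and 2.11 at position 171.

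**Figure D5:**
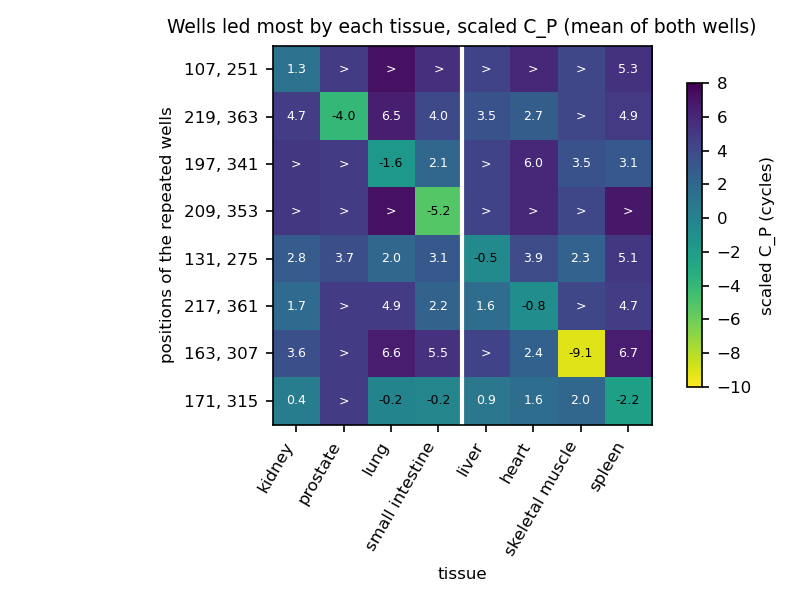
Scaled C_P (cycles, mean of both repeated wells) on card B in the 8 tissues (columns), where > marks both wells beyond the limit. The rows, in the order of the columns, are the wells in which each tissue had its largest lead at a single position. With repeated wells averaged, the largest lead lay elsewhere for liver (position 234, 2.66 cycles) and spleen (position 54, 2.14 cycles). The earliest value of each row lies on the diagonal, for example -9.09 in skeletal muscle, -5.24 in small intestine, and -3.99 in prostate.

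Pairs of tissues were also examined. Heart and skeletal muscle together were ahead of the other 6 tissues at 17 positions, with a lead of 2.53 cycles at position 223. There the C_P was 22.4 in heart and 26.4 in skeletal muscle, and no amplification was seen in liver. Kidney and small intestine were ahead of the other 6 at 13 positions, with a lead of 2.36 cycles at position 127. With repeated wells averaged these were 9 and 7 distinct assays, while the 28 possible pairs of tissues had 0 to 9 with a median of 3. Small intestine with spleen also had 9, and small intestine with liver also had 7. Kidney with skeletal muscle had a lead of at least 5.07 cycles at position 173, the distance to the limit.

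On card A, which holds other assays, the same grouping of the same 8 tissues gave 6 of 380 positions higher in every epithelial organ (1.58%) and 5 higher in every other organ (1.32%). The latter were positions 3, 195, 295, 335, and 366, named after their values were seen. Both counts were reached by other assignments of the tissues (one-sided exact permutation tests, p = 0.114 and p = 0.186). The 6 positions differed by 2.68 to 8.30 cycles, whereas the 5 in the reverse direction differed by 0.716 to 2.36 cycles. Position 98, with the 2.68 cycles, was detected in 0 of the other organs, and position 80 in 2 of them. In the reverse direction, positions 195 and 335, the latter with the 2.36 cycles, were detected in 3 of the epithelial organs. With undetected wells at the limit, these differences are lower bounds. On this card limma called 4 of 230 positions (80, 114, 115, and 226) higher in the epithelial organs at an adjusted p under 0.05 (1.74%). It called 0 higher in the other organs, and at an unadjusted p under 0.05 there were 10 and 9, respectively. For position 80 the epithelial organs alone were enough to be tested, and undetected organs entered the fit at the limit, so its call is a description. Positions 114, 115, and 226 were detected in all 4 organs of both groups. The RNA is of the same tissues, so the cards are not independent animals.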

How the data were processed

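miRNAs of rat tissues were measured by quantitative PCR with TaqMan cards. C_P values were read by the authors from amplification curves (SDS software, RQ Manager) and deposited in PCR cycles, without normalization to U6. The design text names the rodent array kit and the label protocol a human one. No column lacked a sample.

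A C_P over 35 was set to 35, and each tissue was scaled to its median over positions detected in all 8 tissues. Differences were fitted with limma 3.58.1 (lmFit, eBayes, Benjamini-Hochberg) in R 4.3.3, over positions detected in at least 4 tissues, and groups of tissues were enumerated exactly (70 assignments) with Python 3.11.15, numpy 2.4.6, pandas 2.3.3, and scipy 1.17.1. Figures were drawn with matplotlib 3.10.9. The fit and the count were tested on simulated data. Sample numbers are those of the labels, and tissues were the units.

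Positions were named when counted in either direction, among the 10 lowest limma p-values, with the largest lead of a tissue or of the pairs heart with skeletal muscle and kidney with small intestine, or among the 3 nearest misses. The members, groups, and rules were chosen with earlier results of these data known. Alternatives were other detection limits, values of undetected wells, scalings, filters, and tests, the class of liver, and leaving out each tissue. Averaging the repeated wells was chosen after the values were seen. The remaining 9 libraries of each card were used only to compare repeated wells.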

Additional observations from a re-analysis of the deposited data

Results flagged for a closer look

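Position 171 had a scaled C_P of -1.99 in spleen, far from the other 3 organs of its group, with a gap that took 0.852 of the range of the group. It was the only such value among the 39 groups examined. The position was named because spleen had its largest lead there, so this restates how it was chosen and is no further evidence.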

How the results depend on the processing

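Each tissue has 1 library, so organs are the only units. Signals near a C_P of 35 rest on wells with an SD of 0.582 cycles, taken only where both wells were detected. No paired analysis was possible because the labels call every library replicate 1, and the numbers used here within a group only name the tissues.

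For positions higher in every epithelial organ (6), a detection limit of 32 gave 0, liver counted as an epithelial organ gave 3, and repeated wells averaged gave 3, also when scaled to positions 11, 12, 35, and 36. A required gap of 1 cycle gave 6, and 3 with averaged wells, with no usable p for the reasons given above. For the reverse (0), a limit of 40 gave 2. Leaving out each tissue gave 6 to 8 and 0 to 3, and with averaged wells 3 to 4 and 0 to 2.

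The 5 limma calls became 0 with a limit of 32 (3 at an unadjusted p under 0.05) and 0 with liver moved (10). Over positions detected in all 8 tissues there were also 0 (3). The loss of the 5 was fixed in advance there, since none of them was detected in all 8. Averaged wells gave 3 calls, and 2 when scaled to positions 11, 12, 35, and 36. An exact permutation test per position called 0 (6 at an unadjusted p under 0.05), since it cannot go below 0.0286. Leaving out each tissue gave 4 to 5, and with averaged wells 0 to 3, with 0 without heart and 1 without kidney. Wells 127 and 271 then had limma adjusted p-values of 0.0144 to 0.0584.

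The difference in detected positions was 3.17 to 37.8 with each tissue left out, and 3.42 to 23.4 with averaged wells. The difference of the correlations was -0.0103 over positions detected in all 8 tissues, 0.00268 to 0.0177 with each tissue left out, and -0.00214 to 0.00873 with averaged wells, where it was -0.00214 without prostate and -0.00160 without skeletal muscle. The cause of these changes was not tested.

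On card A, positions higher in every other organ (5) were 2 with a limit of 32, 11 with a limit of 40, 1 without scaling, and 1 scaled to positions 11, 12, 35, and 36. Positions higher in every epithelial organ (6) were 10 without scaling. The 4 limma calls, all higher in the epithelial organs, were 7 without scaling, in the same direction. With undetected wells at 40 there were 6 higher in the epithelial organs and 1 higher in the other organs. Leaving out each tissue gave 6 to 12, 5 to 14 (9 without prostate), and 0 to 8 calls in both directions together. There were 0 calls without small intestine (19 at an unadjusted p under 0.05) and 1, higher in the epithelial organs, without prostate. Without spleen, 0 positions were called higher in the epithelial organs and 1 higher in the other organs. The calls in these directions were 7 and 1 without liver, and 4 and 1 without heart.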
